A study of Mus musculus with 138 samples.

Results

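The 10 genes described here encode chromatin remodellers of the CHD family and subunits of the NuRD complex: Chd1, Chd3, Chd4, Chd7, Chd8, Mbd3, Mta1, Mta2, Hdac1 and Hdac2. They are 10 of the 25900 genes in the count tables, chosen by name with earlier results of these data known. All of them had a line in both tables. Levels are given as CPM, a gene's count scaled by the total count of its library, in mouse embryos at the 2-cell stage.

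NuRD joins 2 activities in 1 complex: CHD3 or CHD4 moves nucleosomes with energy from ATP, and HDAC1 or HDAC2 removes acetyl groups from histones. MTA1 and MTA2 are scaffolds that hold the deacetylases, and MBD3 links the deacetylase part to the remodeller. CHD1, CHD7 and CHD8 are remodellers outside NuRD. At the 2-cell stage the mouse embryo clears the RNA stored in the oocyte and starts to transcribe its own genome. SMARCA5, the protein removed in this study, is an ATPase of the ISWI family of remodellers.

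In the deletion experiment, 28 embryo libraries labelled Smarca5 +/- (called maternal deletion) were compared with 22 labelled Smarca5 +/+ (called wild type), and the titles of both groups name matKO females. The deletion embryos came from mothers with a maternal knockout of Smarca5 mated to wild-type males, each replicate a pool over several matings. They are thus heterozygous as well as maternally depleted, and these cannot be told apart. In the TrimAway experiment, wild-type zygotes were injected with an antibody to SMARCA5 (31 libraries) or with IgG (20), or were not injected (15), and were collected at least 24 hours later. TrimAway sends the protein bound by the antibody to degradation through TRIM21. What drove the deletion in the oocyte, the strain and the age of the mothers are not given in the sources used here. Each replicate number is a pool or collection of embryos that the labels call a technical replicate, so p-values measure the spread between single embryos of these pools.

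Of 135 embryo libraries 116 had at least 100000 counts and were used. Totals ranged from 109007 to 12004992 counts, with a median of 545264 in wild type, 1618485 in maternal deletion, 1481635 in anti-SMARCA5, 1708008 in IgG and 1460667 in uninjected. Smarca5, the check of the labels, had a median of 443 CPM in wild type, and all 28 deletion libraries were under it. Replicate 2 held 3 libraries that were doubted. Of these 1 was a deletion library (well A04, Smarca5 349 CPM and Gdf9 24.5 CPM). The other 2 were wild-type libraries (wells G05 and H05, Smarca5 158 and 209 CPM, Gdf9 645 and 350 CPM). Smarca5 alone does not set H05 apart, since wild-type libraries of replicate 1 reached down to 191 CPM. Trim21 was at 0 in all 10 IgG libraries of replicate 1 and above 3 counts in 8 of 10 of replicate 3, so the IgG group holds libraries with and without this transcript. It was at 0 in 1 anti-SMARCA5 library (replicate 2, well C02). Replicate 2 of IgG held no library above the minimum depth. Fold changes of the members in the deletion and anti-SMARCA5 comparisons were also fitted without the 3 doubted libraries and without well C02. The paralogue ratios, the counts of embryos at low levels, the tests by replicate and the test of deletion minus TrimAway were not.

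In wild-type embryos Mta2 and Hdac1 led the group once counts were divided by the exon length of each gene. The median level was 57.6 CPM per kb for Mta2 and 44.8 for Hdac1, and Hdac1 exceeded the next member, Chd1 (19.3), in all 22 libraries. Mta2 and Hdac1 themselves were not separated, since Mta2 was the higher in 14 of 22 libraries. Mbd3 (19.0 CPM per kb), Chd7 (15.7), Hdac2 (10.4), Chd8 (8.52) and Chd4 (8.46) followed, and between any of these and its neighbour in the order at most 15 of 22 libraries agreed on which was higher. Chd3 (0.43) and Mta1 (a median of 0) were far below, and Chd4 exceeded Chd3 in all 22 libraries. Uninjected embryos had the same members at both ends of the order: Mta2 (83.5), Hdac1 (51.0) and Chd1 (29.1) at the top, and Mta1 (1.56) and Chd3 (0.85) at the bottom.

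After maternal deletion the order was different. Chd7 (17.1 CPM per kb), Hdac2 (15.99) and Chd4 (13.8) were the 3 highest, and Mta2 (3.00) and Hdac1 (2.46) ranked 7 and 8 of 10. In anti-SMARCA5 embryos Hdac2 (32.9) ranked above Hdac1 (27.4), in 18 of 31 libraries, and Mta2 (17.98) ranked 4. In IgG embryos Hdac1 (42.3) and Mta2 (38.7) were the 2 highest, as in wild type and uninjected, and Hdac1 was the higher in 10 of 20 libraries. The 3 wells without an embryo held at most 1 count of any member.

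**Figure D1:**
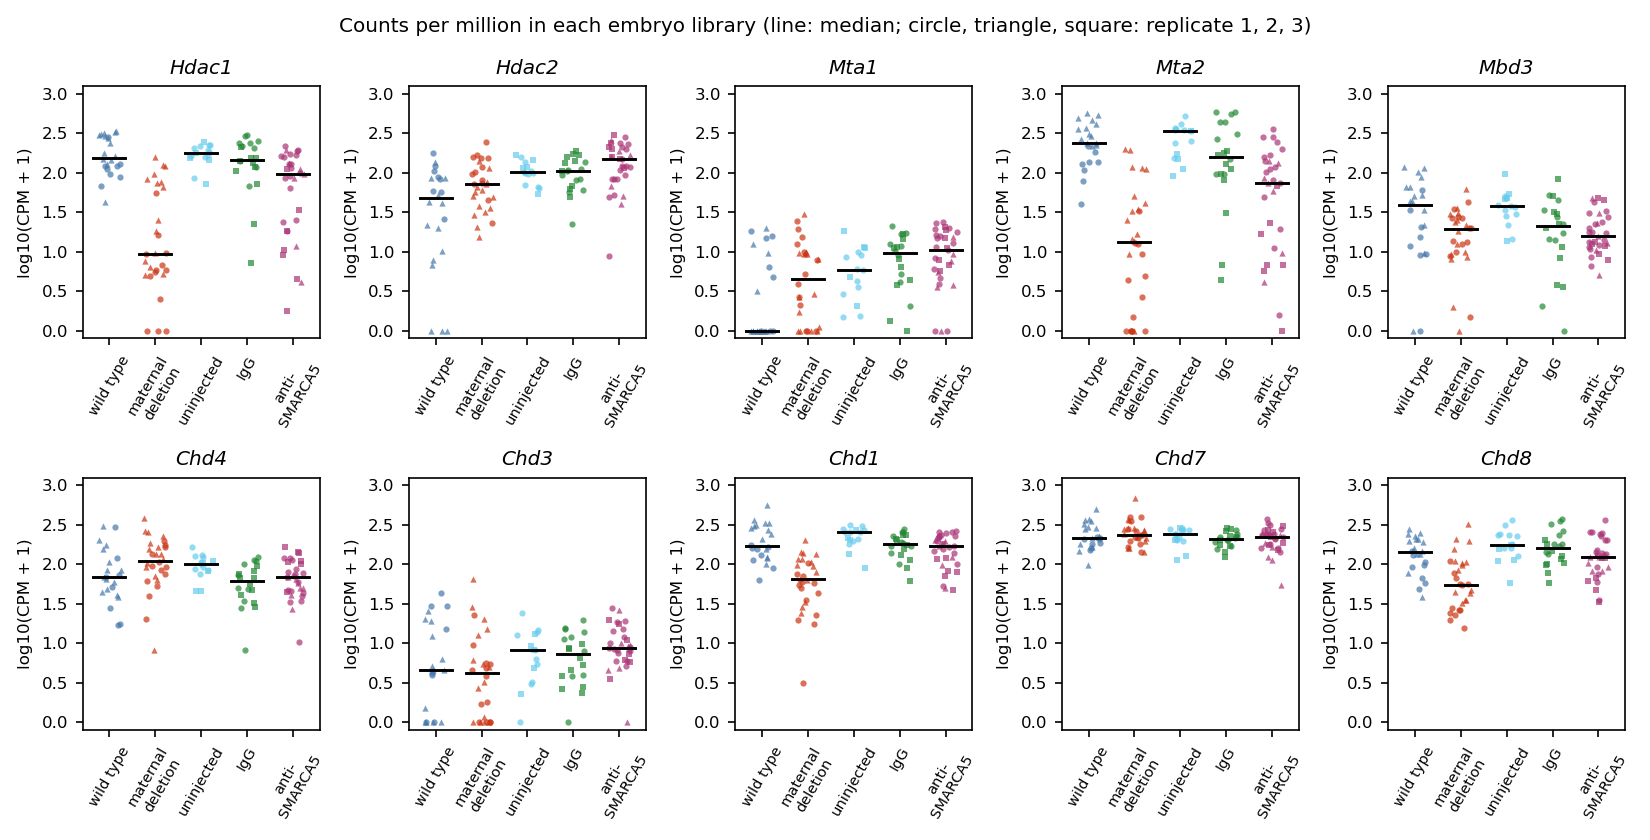
Level of each member, as log10(CPM + 1), in every embryo library of the 5 groups (wild type 22, maternal deletion 28, uninjected 15, IgG 20, anti-SMARCA5 31). Marker shapes give the replicate number and black lines the group medians; Hdac1 and Mta2 of maternal deletion lie mostly below wild type, whereas Chd7 has close medians in all 5 groups.

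The bases just before the gene are shown for Mta2 and Hdac2, which were called in opposite directions in anti-SMARCA5 against uninjected embryos. Both come from RefSeq promoter windows on GRCm38.p6, which hold an entry for 6 of the 10 members, and end where the first annotated transcript begins. Mta2 is on the plus strand of chromosome 19 and its stretch is chr19:8941670-8941874. Hdac2 is on the plus strand of chromosome 10 and its stretch is chr10:36974294-36974543. Capitals mark the GC box letters GGGCGG on either strand, where the other strand reads CCGCCC.
Mta2: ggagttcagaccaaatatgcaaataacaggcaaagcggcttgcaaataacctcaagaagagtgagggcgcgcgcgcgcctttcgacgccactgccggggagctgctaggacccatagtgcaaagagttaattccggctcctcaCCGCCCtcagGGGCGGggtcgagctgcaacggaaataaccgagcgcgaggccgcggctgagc
Hdac2: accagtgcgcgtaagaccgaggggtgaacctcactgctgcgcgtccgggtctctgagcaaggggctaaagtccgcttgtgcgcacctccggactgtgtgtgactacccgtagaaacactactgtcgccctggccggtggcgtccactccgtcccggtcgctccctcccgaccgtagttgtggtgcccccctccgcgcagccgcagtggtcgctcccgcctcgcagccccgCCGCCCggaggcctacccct
Mta2 has 2 such matches and Hdac2 has 1, in a motif that 32.7% of 32851 windows of 250 bases before a RefSeq start hold. Letters of a CCAAT box (CCAAT, in 33.8% of windows) and a TATA box (TATAAA, in 12.4%), searched on both strands, were in neither stretch. The 250 bases before the RefSeq start held 24 CpG for Mta2 and 27 for Hdac2, against a median of 6 over all windows. A match is a description of the letters and not a measured site.

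After maternal deletion 4 members fell and 0 rose, of 8 that passed the filter on low counts. The 4 were Mta2 and Hdac1, a scaffold and a deacetylase of NuRD, and Chd1 and Chd8, remodellers outside it. A gene was called changed at an edgeR quasi-likelihood adjusted p under 0.05 over all genes tested, and by that rule 26.4% of 8518 genes were lower and 30.3% higher, 56.6% in all. The 8 members had a median log2 fold change of -0.81, against 0.18 over all genes tested. Chd3 and Mta1 did not pass the filter and are not counted.

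Mta2 ranged from 38.9 to 566 CPM in wild type, with a median of 236, and from 0 to 198 CPM in maternal deletion, with a median of 12.3. All 28 deletion libraries were below the wild-type median and 21 were below the lowest wild-type library. Its log2 fold change was -2.66 (SE 0.50, adjusted p = 1.79e-05).

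Hdac1, one of the main histone deacetylases of early embryos, went the same way. It ranged from 41.4 to 340.2 CPM in wild type, with a median of 154, and from 0 to 156 CPM in maternal deletion, with a median of 8.46. Of the 28 deletion libraries 27 were below the wild-type median and 19 below the lowest wild-type value, and 3 held no Hdac1 count at all. The log2 fold change was -2.25 (SE 0.44, adjusted p = 3.43e-05).

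The 2 falls were present in both replicate numbers, which in this table are also different sequencing lanes. Mta2 changed by -4.17 in replicate 1 and by -2.24 in replicate 2 (adjusted p = 1.16e-05 and 0.000466). Hdac1 changed by -3.53 and -1.77 (adjusted p = 4.02e-05 and 0.0028). Within these replicates 25.4% and 51.5% of genes were called. A test of the difference between replicates called 0.763% of genes and 0 members, with a difference of 1.94 for Mta2 (SE 0.81, adjusted p = 0.218) and 1.75 for Hdac1 (SE 0.77, adjusted p = 0.247). The median of Hdac1 in deletion libraries was 4.78 CPM in replicate 1 and 65.0 in replicate 2, and that of Mta2 1.69 and 34.3. The highest Mta2 value of the deletion group, 198 CPM, came from the library in well A04.

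Chd1, a remodeller that binds histone H3 methylated at lysine 4, fell by less. It ranged from 62.8 to 560.04 CPM in wild type, with a median of 169, and from 2.11 to 200.03 CPM in maternal deletion, with a median of 63.6. Of 28 deletion libraries 27 were below the wild-type median, 13 of them below all wild-type libraries, and 10 of 22 wild-type libraries were above all deletion libraries. In replicates 1 and 2 the Chd1 median was 143 and 279 CPM in wild type, and 49.0 and 96.5 CPM in maternal deletion. The log2 fold change was -1.28 (SE 0.27, adjusted p = 9.3e-05), and it was -1.28 and -1.19 in replicates 1 and 2 (adjusted p = 0.0133 and 0.00264).

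Chd8, a remodeller known as a partner of beta-catenin, ranged from 37.3 to 277 CPM in wild type (median 141) and from 14.7 to 321 CPM in maternal deletion (median 54.3). The groups overlapped, with 24 of 28 deletion libraries below the wild-type median and 1, from well A04, above all wild-type libraries. Its log2 fold change was -0.72 (SE 0.29, adjusted p = 0.0289). This call was lost with libraries of at least 500000 counts (-0.80, adjusted p = 0.0677) and without replicate 1 (-0.43, adjusted p = 0.348), within a range of adjusted p from 0.00792 to 0.348 over its 10 alternatives.

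The other NuRD members went less far or the other way. Hdac2, the partner deacetylase, had medians of 46.6 CPM in wild type and 71.6 CPM in maternal deletion, and 20 of 28 deletion libraries were above the former. The log2 fold change was 0.78 (SE 0.42, adjusted p = 0.105). Chd4, the main NuRD ATPase, had medians of 67.8 and 110.4 CPM, and 22 of 28 deletion libraries were above the former. Its estimate was 0.66 (SE 0.31, adjusted p = 0.0653). Neither passed the threshold. Without the 3 doubted libraries, Chd4 (0.97, SE 0.29, adjusted p = 0.00422) and Chd7 (0.47, SE 0.19, adjusted p = 0.0337) did. Then 2 members rose, where 32% of genes were called higher, and the same 4 fell, where 28.1% were called lower. The libraries left out held the highest wild-type value of Chd4 (306 CPM, well G05) and its lowest deletion value (7.32 CPM, well A04). Over the 10 alternatives the adjusted p of Chd4 ranged from 0.00422 to 0.568 and that of Chd7 from 0.0337 to 0.578. Each of them was called in 1 of the 10, the fit without the doubted libraries.

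Mbd3 had medians of 37.8 and 18.2 CPM and changed by -0.90 (SE 0.42, adjusted p = 0.0636), with 26 of 28 deletion libraries below the wild-type median. It passed the threshold in 5 of 10 alternatives, over which adjusted p ranged from 0.0131 to 0.996. Its effect was 0.03 within replicate 1 and -1.25 within replicate 2 (adjusted p = 0.982 and 0.0498). Chd7, a remodeller of enhancers mutated in CHARGE syndrome, had medians of 216 and 236 CPM and an estimate of 0.38 (SE 0.19, adjusted p = 0.0837).

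Of the 2 members that were too low to test, Chd3 was at or under 3 counts in 12 of 22 wild-type and 14 of 28 deletion libraries. Mta1 was at or under 3 counts in 17 and 13 of them. Their means in these groups were 9.72 and 7.34 CPM for Chd3 and 4.39 and 6.33 CPM for Mta1.

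Other transcripts moved along the same split. Oocyte markers summed to a median of 1342 CPM in wild type (263 to 4332) and 9733 CPM in maternal deletion (606 to 32218), with all 10 of 10 markers higher in deletion embryos. Of the 7 tested 2-cell stage markers 5 were lower and 0 higher, and their sum had medians of 1089 CPM (625 to 2087) and 336 CPM (1.38 to 2029). Each library is a whole embryo labelled as 2-cell stage. The sums are levels of RNA, and no cell type or number of cells was assigned from them. Cumulus and granulosa markers summed to medians of 73.2 CPM (0 to 248) and 31.3 CPM (0 to 127). The median was 0 in 13 and 12 of 14 markers, among them Fshr, Foxl2 and Has2. In wild type the marker with a median above 0 was Amhr2, which was lower after deletion (-2.73, edgeR adjusted p = 0.00181). After deletion Amhr2 had a median of 0, whereas Cyp19a1 and Star had medians above 0. The part of stored oocyte RNA and of depth in the members' changes was not tested, except that with libraries of at least 500000 counts Mta2 (-2.59), Hdac1 (-2.06) and Chd1 (-1.36) were still called.

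**Figure D2:**
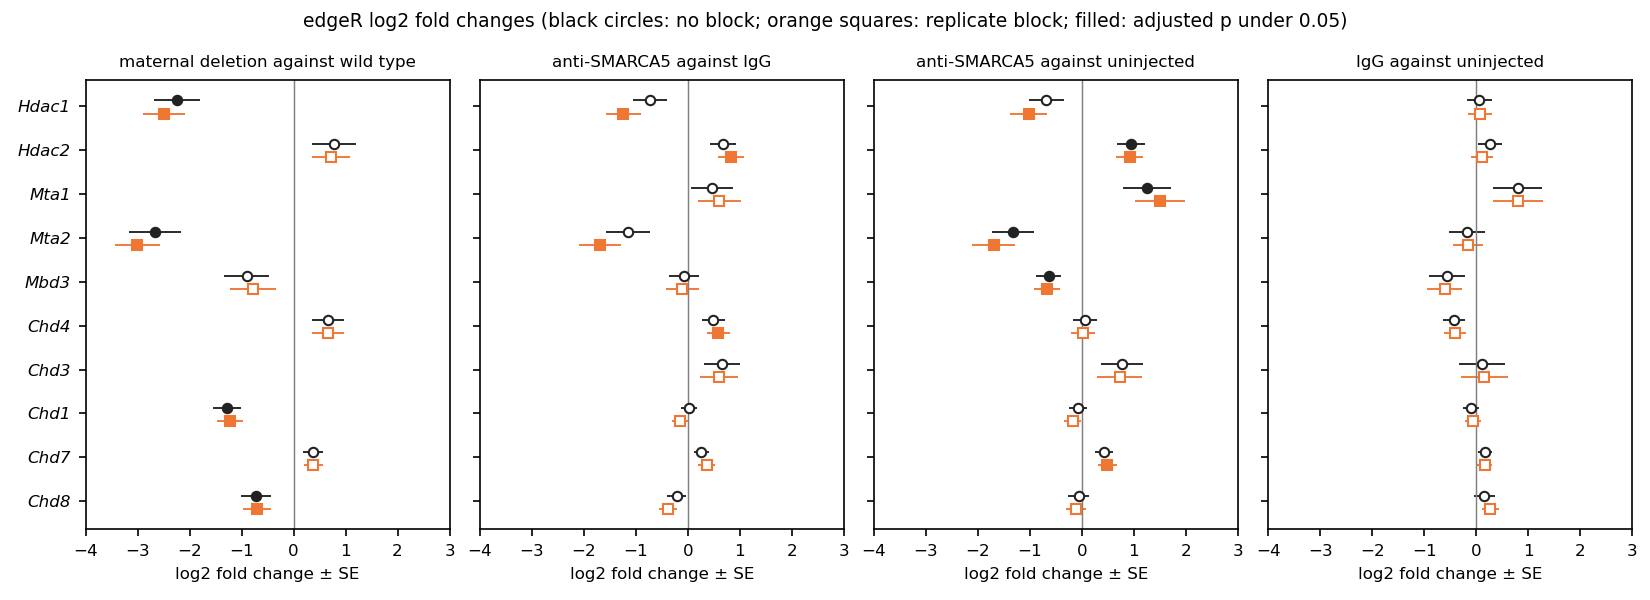
edgeR log2 fold change with its SE for each member in the 4 comparisons, without a block (black circles) and with the replicate number as a block (orange squares); filled markers are past an adjusted p of 0.05, and Chd3 and Mta1 are absent from the deletion panel because they did not pass the filter. Mta2 and Hdac1 lie to the left of 0 and Hdac2 to the right in the 3 comparisons that involve loss of SMARCA5.

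Removal of SMARCA5 protein by TrimAway was compared first with IgG injection. By the unblocked test 0 of 10 members changed in edgeR, where 3.03% of 10447 genes were called. At an unadjusted p under 0.05 there were 4 members and 2762 genes, and DESeq2 also called 0 members. Mta2 had medians of 158 CPM in IgG (3.37 to 584) and 73.6 CPM in anti-SMARCA5 (0 to 359.9), and 25 of 31 anti-SMARCA5 libraries were below the IgG median. Its log2 fold change was -1.15 (SE 0.42, adjusted p = 0.0879). Hdac1 had medians of 146 CPM (6.12 to 304) and 94.3 CPM (0.75 to 219), and its estimate was -0.73 (SE 0.32, adjusted p = 0.142), with 23 of 31 below the IgG median.

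Hdac2 lay on the other side. It had medians of 104 CPM in IgG (21.7 to 186) and 147 CPM in anti-SMARCA5 (7.93 to 296), and 21 of the 31 embryos given the antibody exceeded the former, 11 of them exceeding every IgG library. The log2 fold change was 0.67 (SE 0.25, adjusted p = 0.0943). Chd4 was at 0.50 (SE 0.23, adjusted p = 0.151), and Chd1 at 0.02 (SE 0.15, adjusted p = 0.928).

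Embryos of the same replicate number deviated together across genes in these 2 groups (correlation 0.576), and with the replicate number as a block 4 members changed, where 25.8% of genes were called. Mta2 fell by 1.69 (SE 0.41, adjusted p = 0.00412) and Hdac1 fell by 1.24 on the log2 scale (SE 0.33, adjusted p = 0.00806). Hdac2 rose by 0.84 (SE 0.25, adjusted p = 0.0145) and Chd4 by 0.59 (SE 0.22, adjusted p = 0.043). Over 11 alternatives, this block included, adjusted p ranged from 0.00412 to 0.453 for Mta2, 0.00806 to 0.495 for Hdac1, 0.0145 to 0.387 for Hdac2 and 0.043 to 0.731 for Chd4. The sign of these 4 members was the same in every alternative that gave a value. In the blocked fit replicate 2, which held no IgG library, adds nothing to the difference between the groups. Without replicate 2 and with no block 0 members and 5.85% of genes were called.

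Replicate 3, in which most IgG libraries carried Trim21, held the wider gaps. Within it Mta2 changed by -2.32 (SE 0.67, adjusted p = 0.0126), Hdac1 by -1.96 (SE 0.50, adjusted p = 0.00616) and Chd4 by 1.29 (SE 0.34, adjusted p = 0.00749), where 23.1% of genes were called. Within replicate 1, whose IgG libraries held no Trim21, 1.04% of genes and 0 members were called, with -1.29 for Mta2 (adjusted p = 0.119), -0.78 for Hdac1 (adjusted p = 0.208) and 0.14 for Chd4 (adjusted p = 0.788). The difference between the replicates was called for 0.366% of genes and 0 members, with -1.03 for Mta2 (adjusted p = 0.551) and 1.15 for Chd4 (adjusted p = 0.209). With replicate 1 left out of the unblocked fit, 0 genes in all were called and Mta2 was at -0.97.

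Anti-SMARCA5 embryos were also set against uninjected ones, a comparison that shares its anti-SMARCA5 libraries with the one above and also holds the effect of injection. Of 10 members 2 rose and 2 fell, where 27.9% of 10750 genes were called. Mta2 had a median of 342 CPM in uninjected embryos (89.8 to 523) and changed by -1.33 (SE 0.41, adjusted p = 0.0146), with 30 of 31 anti-SMARCA5 libraries below that median. Mbd3 had medians of 37.4 and 14.6 CPM and changed by -0.64 (SE 0.24, adjusted p = 0.0454), with 27 of 31 below. The call of Mbd3 was lost without the anti-SMARCA5 library in well C02 (-0.63, adjusted p = 0.0511).

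Hdac2 had medians of 101 CPM in uninjected (52.7 to 169) and 147 CPM in anti-SMARCA5 embryos, and rose by 0.94 on the log2 scale (SE 0.27, adjusted p = 0.0108). Mta1, the scaffold paralogue of Mta2, was low in both groups, at medians of 4.85 and 9.51 CPM, and rose by 1.26 (SE 0.46, adjusted p = 0.0382), with 22 of 31 libraries above the uninjected median. With the replicate block 31.9% of genes and 6 members were called, adding Hdac1 at -1.03 (SE 0.35, adjusted p = 0.022) and Chd7 at 0.49 (SE 0.18, adjusted p = 0.03). Replicate 2 held no uninjected library, so it adds nothing to the difference in that fit. With total counts only, a scaling that moved the median of all genes from 0.13 to -0.29 and called 21.2% of genes, the 2 members that fell were called and the 2 that rose were not (Hdac2 0.47, Mta1 0.84), and Chd4 moved from 0.06 to -0.41 and Chd7 from 0.43 to -0.06. Chd1 was below the uninjected median of 254 CPM in 28 of 31 libraries, at a median of 167 CPM, yet its log2 fold change was -0.08 (adjusted p = 0.733), and -0.50 with total counts only (adjusted p = 0.0605). Without replicate 1, which left 5 uninjected libraries, 0 members and 1 gene in all were called. Adjusted p ranged over 11 alternatives from 0.00269 to 0.195 for Mta2, 0.00786 to 0.181 for Hdac2, 0.0113 to 0.286 for Mbd3, 0.0155 to 0.748 for Mta1, 0.022 to 0.328 for Hdac1 and 0.0252 to 0.825 for Chd7 and 0.0605 to 0.964 for Chd1.

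In the IgG group, of which 8 of 20 libraries carried Trim21, 0 of 10 members were called against uninjected embryos in edgeR, where 0% of 9915 genes were called and 1440 had an unadjusted p under 0.05. DESeq2 called 261 genes and 0 members. Chd4 had the lowest unadjusted p of the members, at 0.0468, at -0.43 on the log2 scale (SE 0.21, adjusted p = 0.336), with medians of 98.5 CPM in uninjected and 60.8 CPM in IgG. Hdac1 was at 0.06 (SE 0.24) and Mta2 at -0.18 (SE 0.35).

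Whether a member responded differently to deletion and to TrimAway was tested in 1 fit of 4 groups, as the deletion effect minus the effect of anti-SMARCA5 against IgG. The difference was called for 19.2% of 12035 genes and for 2 of 10 members, near the share over all genes. Chd1 differed by -1.35 (SE 0.31, adjusted p = 0.00107), having fallen after deletion and stood at 0.02 after TrimAway. Hdac1 differed by -1.54 (SE 0.55, adjusted p = 0.0382), with the same sign in both experiments and a larger fall after deletion. Mta2 differed by -1.56 (SE 0.67, adjusted p = 0.0848), which missed the threshold. With the replicate block Chd1 kept the call (-1.14, adjusted p = 0.0065) and Hdac1 lost it (-1.28, adjusted p = 0.105). In that fit the anti-SMARCA5 libraries of replicate 2 have no IgG library to be set against. The adjusted p ranged over 3 alternatives from 0.00153 to 0.0065 for Chd1 and from 0.0337 to 0.105 for Hdac1. The 2 experiments also differ in table, lane and controls, and the part of these was not tested. The other 7 members had differences between -1.05 (Chd3, SE 0.76) and 0.31 (Mta1, SE 0.85), none past the threshold.

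The balance of the paralogues was measured inside each library, as the log2 ratio of (count + 1), which needs no scaling between libraries. Where a paralogue is near 0, the added 1 makes this ratio depend on depth. Only libraries with at least 20 counts of both paralogues together were used, and 12 ratios and comparisons were tested together. Hdac1 against Hdac2 moved toward Hdac2 in all 3 comparisons with loss of SMARCA5. The ratio was 2.28 ± 2.502 (SD, n = 21) in wild type and -2.19 ± 2.51 (SD, n = 28) in maternal deletion, a difference of -4.47. That had a two-sided permutation p of 1e-05, the smallest that 100000 resamples can give, and an adjusted p of 0.00012, and 25 of 28 deletion libraries were not above the wild-type median. With 0.5 or 5 added to the counts in place of 1, the difference was -4.79 or -3.52 (permutation adjusted p = 0.00012 in both). By replicate number the ratio was 0.53 ± 1.25 (SD, n = 8) and 3.35 ± 2.49 (SD, n = 13) in wild type, and -3.99 ± 1.71 (SD, n = 13) and -0.62 ± 2.01 (SD, n = 15) in maternal deletion, where 7 of the 15 libraries of replicate 2 were above 0. In these ratios counts were not divided by length. Per kb of exon, Hdac1 made up a median of 80.2% of the 2 deacetylases in wild type (38.4 to 100%) and 23.2% after maternal deletion (0 to 81.4%).

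In the TrimAway experiment the ratio was 0.72 ± 0.86 (SD, n = 15) in uninjected, 0.41 ± 1.55 (SD, n = 20) in IgG and -1.22 ± 2.12 (SD, n = 31) in anti-SMARCA5 embryos. Anti-SMARCA5 differed from IgG by -1.63 (permutation adjusted p = 0.0113) and from uninjected by -1.94 (permutation adjusted p = 0.00536). IgG and uninjected differed by -0.31 (permutation adjusted p = 0.494). Resampling within replicate numbers gave -2.49 against IgG (permutation adjusted p = 8e-05). That value leaves out replicate 2 of anti-SMARCA5, for which no IgG library was kept. Without replicate 2 the difference with no block was -1.67 (n = 24 and 20, permutation adjusted p = 0.0138). The pools were not tested against each other, and the mean ratio of anti-SMARCA5 was -0.12 ± 1.16 (SD, n = 17), -1.09 ± 1.48 (SD, n = 7) and -4.05 ± 1.99 (SD, n = 7) in replicates 1, 2 and 3. In replicate 3 all 7 anti-SMARCA5 libraries were below 0, whereas 9 of 17 in replicate 1 and 2 of 7 in replicate 2 were above 0. All 7 alternatives of both anti-SMARCA5 comparisons and all 6 of the deletion comparison stayed past the threshold, with adjusted p from 8e-05 to 0.0461 against IgG, from 0.0004 to 0.0461 against uninjected and from 6e-05 to 0.00108 for the deletion.

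**Figure D3:**
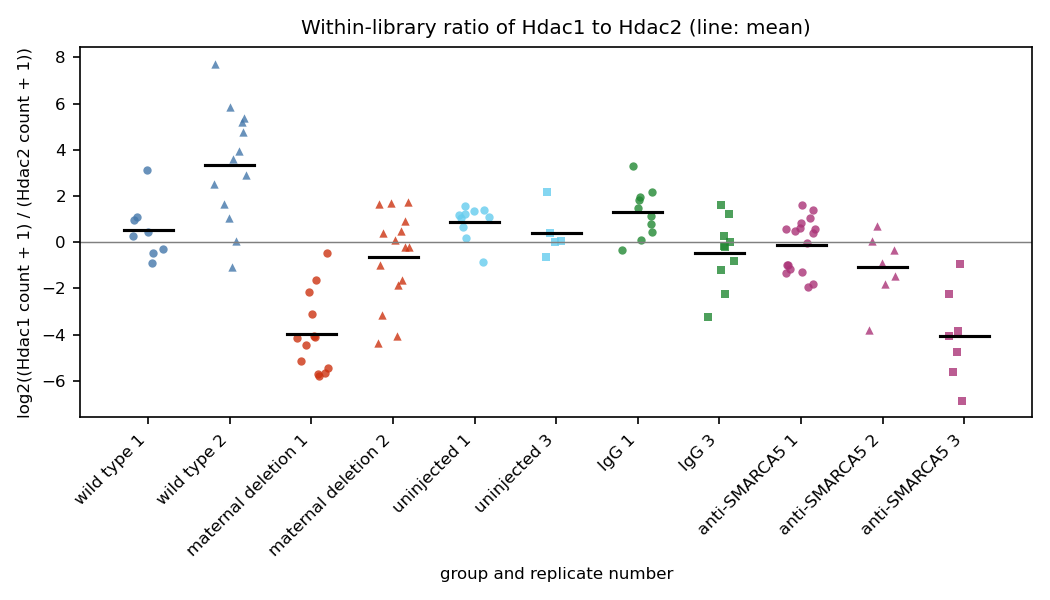
Log2 ratio of (Hdac1 count + 1) to (Hdac2 count + 1) in each embryo library, by group and replicate number, with the mean as a black line; above 0 Hdac1 has more counts. All 13 deletion libraries of replicate 1 and all 7 anti-SMARCA5 libraries of replicate 3 are below 0, whereas 7 of 15 deletion libraries of replicate 2 and 9 of 17 anti-SMARCA5 libraries of replicate 1 are above 0.

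Mta1 against Mta2 moved toward Mta1 in the TrimAway experiment. The difference was 1.88 for anti-SMARCA5 against IgG (n = 28 of 31 and 18 of 20, permutation adjusted p = 0.017) and 2.99 against uninjected (n = 28 of 31 and 15 of 15, permutation adjusted p = 0.0027). Without replicate 3 the difference against IgG was 1.41 and without replicate 1 that against uninjected was 2.96, and neither passed the threshold (permutation adjusted p = 0.0857 and 0.101). IgG against uninjected moved the same way, by 1.11 (permutation adjusted p = 0.0523), and passed the threshold in 2 of 6 alternatives. The part of injection in this shift was not tested. Mta2 stayed the more abundant per kb in most embryos, at a median share of Mta1 of 14.2% after deletion, 13.1% in anti-SMARCA5, 5.28% in IgG, 2.20% in uninjected and 0% in wild type. After maternal deletion the ratio is only described, with a difference of 3.34 (n = 17 of 28 and 20 of 22). Its minimum of 20 counts depends on Mta2 itself and kept 3 of 13 deletion libraries of replicate 1 and 14 of 15 of replicate 2. The ratio of Chd3 to Chd4 did not pass the threshold in any of the 4 comparisons, with differences of -1.18, 0.25, 0.96 and 0.71 in the order of deletion, anti-SMARCA5 against IgG, anti-SMARCA5 against uninjected and IgG against uninjected (permutation adjusted p = 0.139, 0.494, 0.0523 and 0.161). It did pass in 3 of 7 alternatives against uninjected (lowest permutation adjusted p = 0.0253) and in 1 of 6 after deletion (permutation adjusted p = 0.0302).

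Low levels of Hdac1 and Mta2 were found in the same embryos in anti-SMARCA5, maternal deletion and IgG, but not in wild type. At a level of 50 CPM, chosen after the values were plotted, 11 of 31 anti-SMARCA5 embryos were below it for Hdac1 and all 11 were below it for Mta2, whereas 19 were above it for both. In maternal deletion 19 of 28 embryos were below it for both, 4 for Mta2 alone and 0 for Hdac1 alone. Of 20 IgG embryos 2 were below it for both and 1 for Mta2 alone, and all 15 uninjected embryos were above it for both. Of 22 wild-type embryos 1 was below it for Hdac1 alone, 1 for Mta2 alone and 0 for both. The split was uneven over replicate numbers. In replicates 1, 2 and 3 of anti-SMARCA5 the Hdac1 median was 127, 94.3 and 9.51 CPM. That of Mta2 was 117, 72.2 and 5.85 CPM. In maternal deletion the Hdac1 median was 4.78 CPM in replicate 1 and 65.0 CPM in replicate 2. The IgG embryos low in both genes, wells A04 and B04, were of replicate 3. Among the 11 anti-SMARCA5 embryos low in Hdac1, 7 were above 50 CPM for Hdac2 and 9 for Chd1. The anti-SMARCA5 medians were 94.3 CPM for Hdac1, 73.6 for Mta2, 147 for Hdac2 and 167 for Chd1, so 50 CPM is not the same cut for each. The 4 anti-SMARCA5 embryos below it for Hdac2 and the 2 for Chd1 were all among these 11. In maternal deletion 6 embryos were below it for Hdac1 and Hdac2 and 3 for Hdac2 but not Hdac1. There 9 were below it for Hdac1 and Chd1 and 1 for Chd1 but not Hdac1. These are counts of embryos with no test, since the embryos were sorted by the measured level, and 2 genes of 1 library share its depth.

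**Figure D4:**
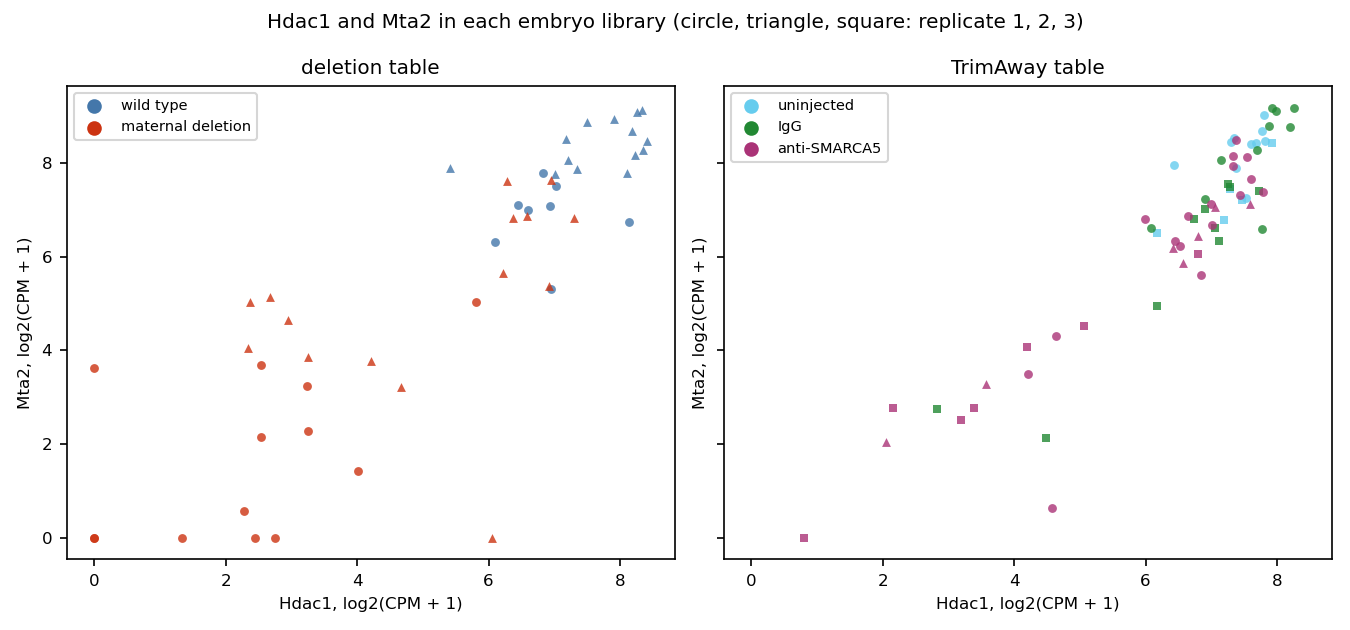
Hdac1 against Mta2, each as log2(CPM + 1), with 1 point for each embryo library of the deletion experiment (left) and the TrimAway experiment (right); colours give the group and marker shapes the replicate number. In anti-SMARCA5 a lower set of 11 embryos and an upper set of 19 lie on either side of 50 CPM for both genes, and uninjected embryos lie in the upper part only. Replicate 3 of anti-SMARCA5 has medians of 9.51 CPM for Hdac1 and 5.85 CPM for Mta2, against 127 and 117 CPM in replicate 1.

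Of the 7 other NuRD subunits, all tested in the deletion comparison, 3 were higher and 3 lower, where 30.3% of all genes were higher and 26.4% lower. Mbd2, the methyl-CpG binding alternative to MBD3, was higher by 1.61 (SE 0.59, adjusted p = 0.0177), the histone chaperone Rbbp7 by 0.88 (SE 0.28, adjusted p = 0.00598) and Gatad2a by 0.50 (SE 0.21, adjusted p = 0.0381). Cdk2ap1, a small subunit, fell by 2.54 (SE 0.45, adjusted p = 6.52e-06), Gatad2b by 0.93 and Rbbp4 by 0.83 on the log2 scale (adjusted p = 0.00338 and 0.0127), while Mta3 was at -0.31 (adjusted p = 0.542). The paralogues Rbbp4 and Rbbp7, and Gatad2a and Gatad2b, were called in opposite directions. Against IgG 0 of these 7 were called in anti-SMARCA5, with Cdk2ap1 at -1.12 (adjusted p = 0.099), and against uninjected Cdk2ap1 (-1.19), Gatad2b (-0.79) and Mta3 (-0.79) were lower.

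Of 5 other CHD genes 3 could be tested after deletion, and Chd2 (1.61, SE 0.67, adjusted p = 0.0367) and Chd9 (1.03, SE 0.44, adjusted p = 0.0397) rose, whereas Chd6 was at 0.62 (adjusted p = 0.218). Chd1l and Chd5 did not pass the filter in any of the 4 comparisons. Against uninjected all 3 were higher in anti-SMARCA5 embryos (Chd2 1.74, Chd6 0.98, Chd9 0.58), and against IgG 0 of 3 were called. Among 8 tested partners of NuRD and CHD4, 1 was higher after deletion (Adnp2, 1.79) and 5 lower, with the smallest adjusted p for the heterochromatin protein gene Cbx3 (-1.79, adjusted p = 3.22e-05). Among 13 tested genes of other complexes that hold HDAC1 or HDAC2, 5 were higher and 3 lower, with the smallest adjusted p for Mier2 (2.01) and Mier3 (-1.38). Of 3 other histone deacetylases tested 0 were called. These lists are small, and the 8 of 13 called among the complexes stand beside 56.6% of all genes. Of all genes 27.9% were called against uninjected and 3.03% against IgG.

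Each member lies in a different place of GRCm38, as the deposited tables give it. Hdac1 is on chromosome 4 (129516104 to 129542713), Mta2 on chromosome 19 (8941875 to 8952303) and Chd1 on chromosome 17 (15704967 to 15772610), and none of these 3 overlaps another gene in GENCODE M21. Hdac2 is on chromosome 10 (36974544 to 37001889) and also overlaps none. Chd8 overlaps 1 gene on its own strand and 1 on the other, and Chd3 and Chd4 overlap 1 and 2 genes on their own strand, small RNA genes or models by name (Gm22442, Mir7045 and Gm23751), so that reads there could be shared.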

How the data were processed

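Polyadenylated RNA of 138 wells (135 embryos and 3 wells without an embryo) was measured by the RNA part of scNMT-seq, with Nextera XT libraries, per the labels' protocols. The authors deposited 2 tables of whole-number read counts per gene, not normalized. The submitters' processing notes name Trim Galore 0.6.5, cutadapt 2.3, HISAT2 2.1.0 and GRCm38, and strand, read pairs and duplicates in the counting are not given in the sources used here. Odd low counts outnumbered even ones (134662 table entries of 1, 30228 of 2, 84269 of 3 and 23199 of 4), so counts may not be independent reads.

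Lines of 1 identifier were summed to 25900 genes, and 116 embryo libraries with at least 100000 counts were kept. edgeR 4.0.16 (TMM, filterByExpr, robust quasi-likelihood F test, Benjamini-Hochberg) was fitted to each comparison on all genes, called at an adjusted p under 0.05; SE is the log2 fold change over the square root of F. DESeq2 1.42.0, other scalings, filters and depths, a replicate block and left-out libraries were alternatives. Replicate numbers were taken as pairs because the design text makes each a pool and, in the deletion table, each a lane; group deviations of the same number correlated at 0.520 (deletion), 0.576 (anti-SMARCA5 and IgG), 0.073 (anti-SMARCA5 and uninjected) and 0.416 (IgG and uninjected). Scripts were tested on simulated data. Members and lists were chosen with earlier results of these data known; besides the 10 members, text names all other CHD and NuRD genes and the gene of smallest adjusted p in each direction of each remaining list after deletion. Exon lengths came from GENCODE M21.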

Additional observations from a re-analysis of the deposited data

Results flagged for a closer look

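The response to loss of SMARCA5 differed between the 2 experiments for 2 members, by a test of the deletion effect minus the effect of anti-SMARCA5 against IgG. The same test called 19.2% of 12035 genes, so 2 of 10 members is near the share over all genes. For Chd1 that difference was -1.35, from an effect of -1.28 after maternal deletion and 0.02 after TrimAway. For Hdac1 it was -1.54, from effects of -2.25 and -0.73, and it did not pass the threshold with the replicate block (-1.28, adjusted p = 0.105 in edgeR, against 0.0337 to 0.0457 in the other 2 alternatives).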

How the results depend on the processing

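No result changed direction while past its threshold. Of the members' fold changes under the alternatives, 383 kept their direction and side of the threshold, 16 gained a call, 17 lost one and 35 changed sign with neither value called. Genes called, against 4825 after maternal deletion, 317 for anti-SMARCA5 against IgG and 2999 against uninjected, were 10416, 3010 and 6184 without the filter on low counts, which tested more genes. The same setting gave 881 for IgG against uninjected, 678 and 136 for the replicate differences of deletion and TrimAway, and 4285 for deletion minus TrimAway. For anti-SMARCA5 against IgG the count was 64 with total counts only, 1007 with DESeq2, 150 with at least 500000 counts, 623 with every library that had any count and 521 without the doubted library. DESeq2 called 261 for IgG against uninjected. Leaving out 1 replicate number gave 2801 to 3879 genes for the deletion, 0 to 591 against IgG, 1 to 2921 against uninjected and 0 to 1 for IgG against uninjected.

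Members called were 1 against IgG with every library that had any count, 0 to 1 there without 1 replicate, 2 against uninjected with total counts only, and 0 to 5 there without 1 replicate. Without 1 replicate the Chd3/Chd4 difference was -1.89 to -0.87 after deletion, -0.0297 to 1.43 against uninjected and -0.18 to 1.399 for IgG against uninjected. It was 1.08 against uninjected with at least 500000 counts. The Mta1/Mta2 difference was 1.41 to 2.66 against IgG, 2.77 to 3.16 against uninjected and 0.30 to 1.36 for IgG against uninjected, there 1.23 with at least 500000 counts. That of Hdac1/Hdac2 for IgG against uninjected was -0.87 to 0.41. The cause of these moves was not tested. Low counts left Chd3 and Mta1 untested after deletion, and Mta1 was at 0 also in the deepest wild-type library, of 12004992 counts. With at least 500000 counts the call of Chd8 after deletion was lost.

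With the replicate block 4 members and 2691 genes were called against IgG, and 1 member and 1404 genes for deletion minus TrimAway. Apart from Hdac1 and Chd7 against uninjected, the block changed no other call of a member.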
